A study of Mus musculus with 15 samples.

Results

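The p53 gene Trp53 and 9 genes that p53 is known to activate, namely Cdkn1a, Mdm2, Ccng1, Gdf15, Pmaip1, Bbc3, Bax, Trp53inp1 and Zmat3, were followed across mouse stem cells and embryoid bodies. They were taken by name from the 55471 gene IDs of each count table, and all 10 matched a symbol. Poly(A) RNA had been sequenced in 15 libraries, 3 for each of 5 groups. All cells were E14 mouse embryonic stem cells (mESCs) held in 2i/LIF, a medium in which LIF and a pair of kinase inhibitors hold the naive state, or embryoid bodies (EBs), aggregates that differentiate in suspension, grown from them. Wild-type mESCs were nontreated or exposed to 500 nM dTAG-13 for 72 h. Nontreated mESCs of the NSD1-dTAG knock-in line, in which the histone H3K36 methyltransferase NSD1 carries a degron tag, formed the third group. EBs of that knock-in line were collected on day 6, nontreated or kept in 500 nM dTAG-13 for all 6 days, so both EB groups carry the tag. dTAG-13 recruits a ubiquitin ligase to the tag so that the tagged protein is degraded, and in wild-type cells it has no tag to bind. Wild-type EBs were not analysed here, nor were NSD1-dTAG mESCs given the degrader, and the number of clones behind the knock-in line is not given in the sources used here.

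p53 is a transcription factor that is made continuously and destroyed continuously: the ubiquitin ligase Mdm2 marks it for the proteasome, and stress such as DNA damage breaks that hold, so that p53 protein accumulates and activates genes for cell cycle arrest, repair, cell death and metabolism. Mdm2 is itself a p53 target, which closes a feedback loop, and much of the regulation of p53 acts on the protein, which mRNA counts do not show. Mouse embryonic stem cells are known for high p53 levels and for a strong death response when they leave pluripotency.

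p53 binds pairs of a 10-base half-site, and promoter windows were searched for it because shared binding letters are what these genes have in common as a group. RefSeq promoter windows of GRCm38.p6, from 250 bases before to 50 bases after a transcription start, were at hand for 7 of the 10 genes, as 11 windows. No window was used for Pmaip1, Trp53inp1 or Zmat3. The p53 half-site consensus, which reads the same on both strands, occurred without a mismatch in 5 of the 11 windows, against 8.36% of all 32851 windows. A response element was counted as a pair of half-sites with intact central bases, at most 2 other mismatches and at most 13 bases between them. It occurred in 2 of the 11, in Cdkn1a and Bax, against 2.12% of the same 32851 windows. The longest runs below are upstream of those starts and show the elements. Capitals mark half-sites, and all sequences run 5′ to 3′ on the strand of the gene.
Cdkn1a, chr17:29090859-29090968, plus strand: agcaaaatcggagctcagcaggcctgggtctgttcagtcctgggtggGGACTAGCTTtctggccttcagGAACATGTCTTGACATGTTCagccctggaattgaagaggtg
Bax, chr7:45467049-45467138, minus strand: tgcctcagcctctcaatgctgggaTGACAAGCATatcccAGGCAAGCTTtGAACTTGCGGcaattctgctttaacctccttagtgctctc
Trp53, chr11:69580274-69580303, plus strand: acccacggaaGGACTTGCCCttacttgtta
Mdm2, chr10:117710925-117710954, minus strand: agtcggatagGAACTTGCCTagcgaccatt
Ccng1, chr11:40755452-40755481, minus strand: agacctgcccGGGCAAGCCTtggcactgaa
In Cdkn1a, GAACATGTCT and the half-site that abuts it form an element with 0 bases between them and 1 mismatch, and GAACATGTCT also pairs, across 12 bases, with GGACTAGCTT. In Bax the 3 capital runs form 2 overlapping elements with 2 mismatches each. Cdkn1a has another window, 29093519 to 29093818 at a start further downstream, which holds 0 half-sites and 0 elements. The Trp53, Mdm2 and Ccng1 windows hold a lone half-site, and those of Bbc3 and Gdf15 hold none. An empty window says only that these letters are not in that window. These matches are descriptions of sequence. No binding was measured.

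Gene counts summed to 18704591 to 29103958 per library. Levels below are CPM, a gene's count scaled to a common library total, given in the order of replicates 1, 2 and 3. In each group 1 library stood apart, with more of its counts on ribosomal protein genes, 6.24% to 8.71% against 5.14% to 5.81% in the other 10, and the shortest read-weighted exon length, 4.99 to 5.50 kb against 5.71 to 5.93 kb. These were wild-type nontreated 1, wild-type dTAG-13 3, NSD1-dTAG 1 and replicate 3 of both EB groups. Nsd1 mRNA, which checks no label because the degrader acts on the protein, was 309, 396 and 387 CPM in wild-type nontreated mESCs, 392, 393 and 248 CPM in wild-type dTAG-13 mESCs and 163, 346 and 340 CPM in NSD1-dTAG mESCs. It was 261, 243 and 209 CPM in nontreated EBs and 329, 306 and 230.0 CPM in dTAG-13 EBs, with overlapping groups. Naive pluripotency markers (8 genes) summed to 2458 to 3293 CPM in the 9 mESC libraries, to 339 to 517 CPM in nontreated EBs and to 220.3 to 306 CPM in dTAG-13 EBs. The labels call the EB cells mouse embryonic stem cells, yet 4 formative epiblast markers summed to at least 1126 CPM in every EB library against at most 141 CPM in mESCs. The labels name the 3 libraries of a group biological replicates and say no more. Each p-value thus sets a group difference against the spread among these libraries only. RNA was measured in bulk, so fewer cells of a type and less RNA per cell cannot be told apart.

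Trp53 (ENSMUSG00000059552.13, GRCm38 chromosome 11, 69580359 to 69591873, plus strand) encodes p53. Its level was 321, 336 and 319 CPM in wild-type nontreated mESCs, 316, 324 and 356 CPM in wild-type dTAG-13 mESCs and 284, 306 and 308 CPM in NSD1-dTAG mESCs. It was 301, 324 and 311 CPM in nontreated EBs and 277, 273 and 258 CPM in dTAG-13 EBs. The mRNA was thus near the same level in mESCs and nontreated EBs, and the 3 dTAG-13 EB libraries were the lowest of all 15. Mdm2 (ENSMUSG00000020184.15, chromosome 10, 117688875 to 117710758, minus strand), the ligase that holds p53 down, was at 103, 109 and 113 CPM, then 107, 107 and 105 CPM, then 85.6, 96.5 and 106 CPM in the same 3 mESC groups. Nontreated EBs had 166, 140.0 and 152 CPM of Mdm2 and dTAG-13 EBs 191, 186 and 182 CPM. Every EB library was above every mESC library, and every dTAG-13 EB library above every nontreated one.

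**Figure D1:**
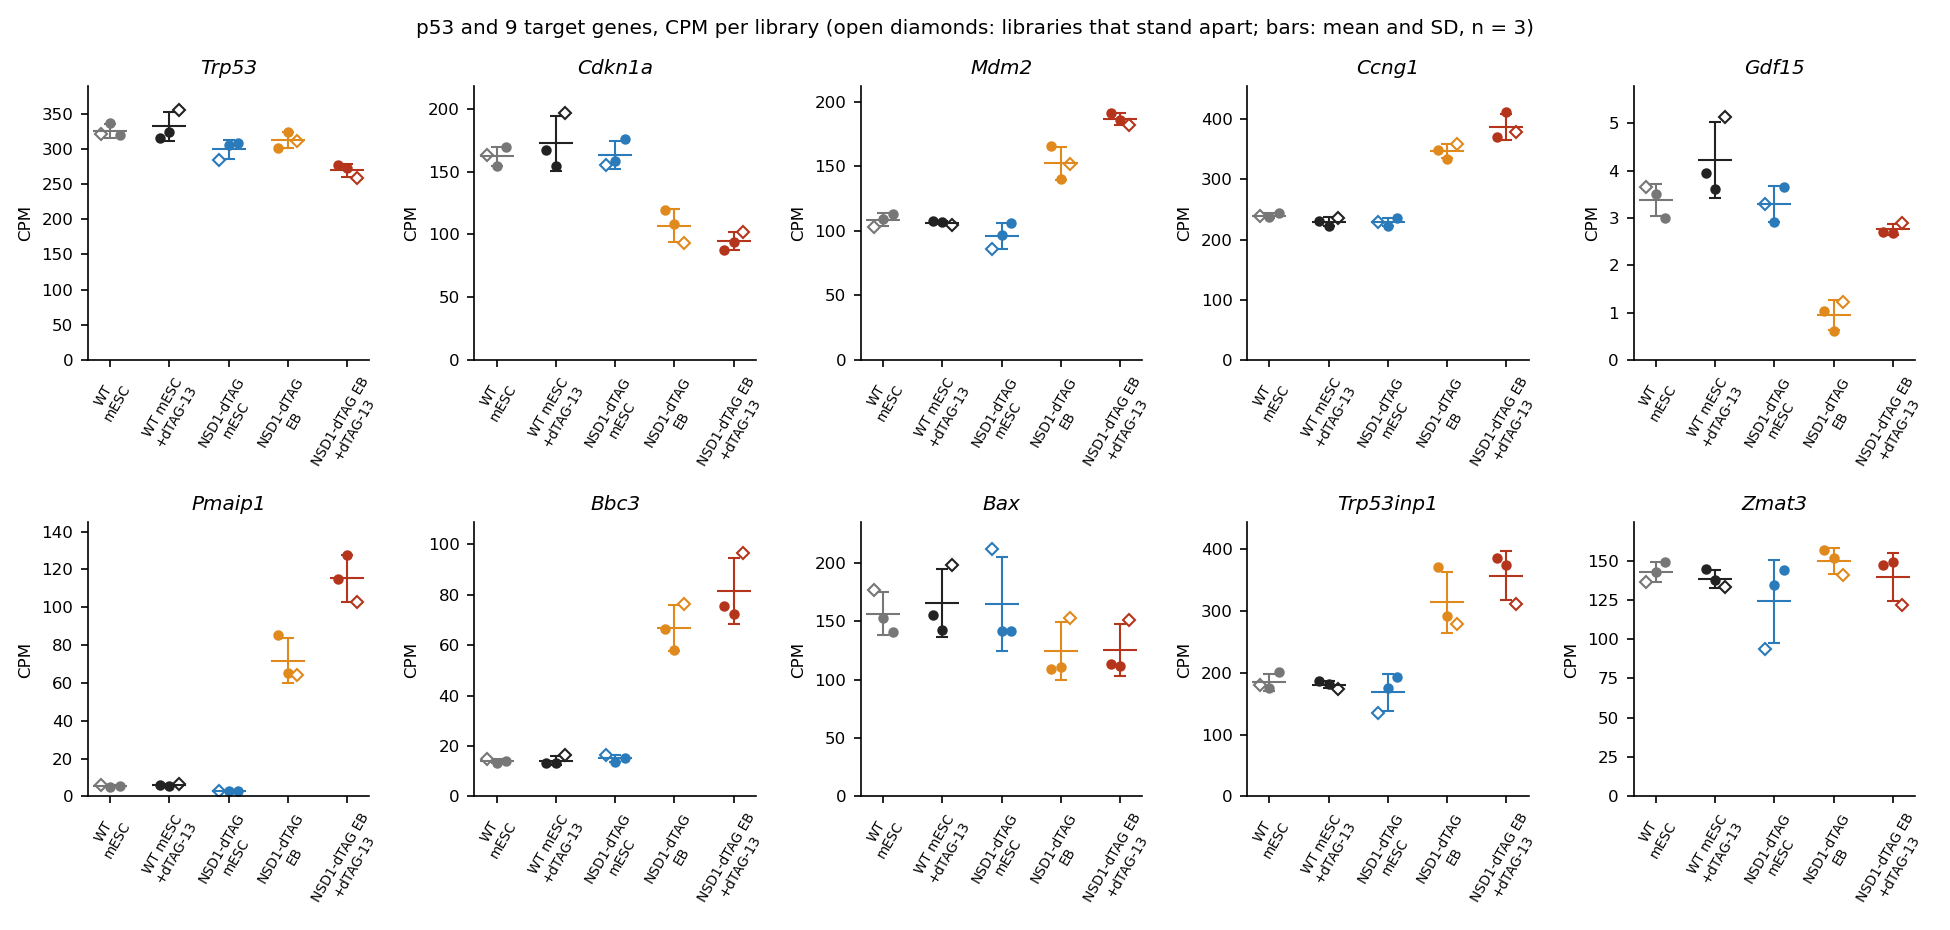
CPM (vertical axes, from 0) of Trp53 and 9 p53 target genes in each library of the 5 groups (horizontal axes). Circles are libraries, open diamonds the library of each group that stands apart, and bars the mean and SD of 3 libraries. Pmaip1 and Bbc3 are low in all 9 mESC libraries and high in all 6 EB libraries, while Cdkn1a and Gdf15 are lower in nontreated EBs than in any mESC group.

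Cell cycle arrest is represented by Cdkn1a and Ccng1. Cdkn1a (ENSMUSG00000023067.14, chromosome 17, 29090976 to 29100727, plus strand) encodes p21, the inhibitor of cyclin-dependent kinases through which p53 stops the cycle. It was at 163, 154 and 169 CPM in wild-type nontreated mESCs, 167, 154 and 197 CPM with dTAG-13 and 155, 158 and 176 CPM in NSD1-dTAG mESCs. It was at 119, 108 and 93.3 CPM in nontreated EBs and at 87.6, 94.2 and 102 CPM in dTAG-13 EBs, so all EB libraries were below all mESC libraries and the EB groups overlapped. Its annotated exons overlap 273 bases of AC167363.2 on the opposite strand, which had at most 0.0143 CPM in any group. Ccng1 (ENSMUSG00000020326.7, chromosome 11, 40748552 to 40755311, minus strand) encodes cyclin G1, which brings a phosphatase to Mdm2. It was at 239, 237 and 244 CPM, 231, 222 and 236 CPM, and 229, 222 and 236 CPM in the mESC groups. Ccng1 was at 349.5, 334 and 358 CPM in nontreated EBs and 370.7, 412 and 378 CPM in dTAG-13 EBs, again with no overlap between mESCs and EBs or between the EB groups.

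Pmaip1, Bbc3, Bax and Trp53inp1 belong to the death arm. Pmaip1 (ENSMUSG00000024521.8, chromosome 18, 66458533 to 66465565, plus strand) encodes Noxa, a BH3-only protein that blocks the survival factor Mcl1. It was at 5.90, 5.25 and 5.72 CPM in wild-type nontreated mESCs, 6.27, 5.55 and 6.67 CPM with dTAG-13, and 2.89, 2.88 and 2.89 CPM in NSD1-dTAG mESCs. In nontreated EBs it was at 85.6, 65.4 and 64.2 CPM and in dTAG-13 EBs at 115, 128 and 103 CPM. None of these pairs of groups overlapped except the wild-type pair. Bbc3 (ENSMUSG00000002083.13, chromosome 7, 16308393 to 16318205, plus strand) encodes Puma, a BH3-only protein that binds all the survival proteins of the BCL-2 family. It was at 13.1 to 16.3 CPM in the 9 mESC libraries, at 66.3, 58.2 and 76.2 CPM in nontreated EBs and at 75.5, 72.5 and 96.4 CPM in dTAG-13 EBs. The highest Bbc3 value of each of the 5 groups came from the library that stands apart.

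Bax (ENSMUSG00000003873.11, chromosome 7, 45461697 to 45466898, minus strand) forms pores in the outer mitochondrial membrane once BH3-only proteins release it. Its level was 177, 152 and 141 CPM in wild-type nontreated mESCs, 155, 143 and 198 CPM with dTAG-13 and 212, 142 and 142 CPM in NSD1-dTAG mESCs. Nontreated EBs had 109, 111 and 153 CPM of Bax and dTAG-13 EBs 114, 111 and 151 CPM. In all 5 groups the library that stands apart had the highest value, and without it the remaining mESC libraries lay at 141 to 155 CPM and the EB libraries at 109 to 114 CPM. Bax exons overlap 192 bases of Gm45808, which had 0 counts in every library. Trp53inp1 (ENSMUSG00000028211.11, chromosome 4, 11156431 to 11174379, plus strand) encodes a cofactor of p53 in death and autophagy. It was at 135 to 200.3 CPM in mESC libraries, with the lowest value in NSD1-dTAG 1, at 370.2, 292 and 278 CPM in nontreated EBs and at 385, 374 and 311 CPM in dTAG-13 EBs. All EB libraries were above all mESC libraries, and the EB groups overlapped.

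Gdf15 and Zmat3 act outside the arrest and death arms. Gdf15 (ENSMUSG00000038508.7, chromosome 8, 70629393 to 70632456, minus strand) encodes a secreted stress cytokine that the transcription factors ATF4 and CHOP also activate. It was the least abundant of the 10, with 17 to 120 counts per library. Its level was 3.65, 3.51 and 2.99 CPM in wild-type nontreated mESCs, 3.96, 3.61 and 5.13 CPM with dTAG-13 and 3.30, 2.91 and 3.66 CPM in NSD1-dTAG mESCs. It was at 1.04, 0.61 and 1.23 CPM in nontreated EBs and at 2.70, 2.69 and 2.90 CPM in dTAG-13 EBs, so the nontreated EBs were below every other library and the dTAG-13 EBs lay between them and the mESCs. Zmat3 (ENSMUSG00000027663.12, chromosome 3, 32334792 to 32366014, minus strand) encodes a zinc finger RNA-binding protein that regulates splicing and mRNA stability. It was at 94.0 to 149 CPM in mESCs, 157, 152 and 141 CPM in nontreated EBs and 147, 149 and 122 CPM in dTAG-13 EBs. The groups overlapped throughout, and in each group the library that stands apart had the lowest value.

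Levels of different genes were compared as CPM per kb of annotated exon (mean ± SD, n = 3). In wild-type nontreated mESCs the order was Bax at 99.4 ± 11.6 CPM per kb, Trp53 at 80.5 ± 2.34, Ccng1 at 68.3 ± 1.09, Cdkn1a at 45.7 ± 2.17, Trp53inp1 at 28.5 ± 2.12 and Mdm2 at 21.4 ± 1.00. Zmat3 at 12.5 ± 0.574 CPM per kb, Bbc3 at 6.58 ± 0.352, Pmaip1 at 2.06 ± 0.123 and Gdf15 at 1.83 ± 0.186 followed, and only Pmaip1 and Gdf15 lay within their spread of each other. In nontreated EBs Ccng1 led with 98.8 ± 3.54 CPM per kb, Bax with 78.9 ± 15.7 and Trp53 with 77.2 ± 2.82 could not be ordered, and Trp53inp1 had 48.4 ± 7.67. The next 4 in EBs, Bbc3 at 31.5 ± 4.26 CPM per kb, Cdkn1a at 30.1 ± 3.67, Mdm2 at 30.0 ± 2.52 and Pmaip1 at 26.3 ± 4.38, overlapped within their spread. Zmat3 at 13.1 ± 0.727 and Gdf15 at 0.518 ± 0.172 CPM per kb were lowest. The death genes Pmaip1 and Bbc3, which ranked near the bottom in mESCs, thus stood level with Cdkn1a and Mdm2 in EBs.

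Among 10428 genes with a mean of at least 5 CPM, the patterns most like Trp53 over the 15 libraries (Pearson r of log2(CPM + 1)) were those of Zfp420 with r = 0.92, Ccnjl with r = 0.91 and Rabl3 with r = 0.91. For Cdkn1a they were Tmem248 with r = 0.98, Relb with r = 0.98 and Tsc22d1 with r = 0.97. Relb, for instance, had 48.9 CPM in wild-type nontreated mESCs, 23.6 CPM in nontreated EBs and 21.7 CPM in dTAG-13 EBs. The 9 mESC and 6 EB libraries form separate sets, so the r values of Cdkn1a rest largely on the step between them, and none of the 10 p53 genes was among the 3 closest to Trp53 or to Cdkn1a.

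The groups were then compared in pairs, and a gene was called at an adjusted p below 0.05 in edgeR's quasi-likelihood test with adjustment over all genes tested. Neighbouring comparisons share a control group, the wild-type nontreated mESCs, the NSD1-dTAG mESCs or the nontreated EBs in turn, so their values are set side by side and not correlated. The first asks what dTAG-13 does where there is no tag. In wild-type mESCs none of the 10 genes was called, and none of 13784 genes tested was (0% called), with 229 genes at an unadjusted p below 0.05 in edgeR and 81 in DESeq2, which called 0 as well. The log2 fold changes of the 10 ran from -0.07 for Ccng1 to 0.30 for Gdf15, with a median of 0.02 against -0.01 over all genes. Ccng1 was the 1 gene of the 10 whose groups did not overlap, against 6.06% of all genes. Of the other p53 targets 0 of 36 tested were called, with a median of -0.03 and a range of -1.11 to 0.23. The lowest was the peptide transporter Tap1, named here after its values were seen, which had under 1 CPM in each library and did not pass the test (log2 -1.11, SE 0.36, edgeR adjusted p = 1, groups without overlap). The most abundant of them were Sesn2 (log2 0.04), Psrc1 (log2 0.00), Rps27l (log2 0.03) and Aen (log2 0.05), and in the same comparison the ribosomal proteins Rpl5 and Rpl11, which bind Mdm2, were at -0.02 and 0.03, the survival gene Mcl1 at 0.01 and the cell cycle genes Top2a and Ccna2 at -0.07 and -0.01. Bid was at 0.05, Cdkn1b at -0.01, Cdkn1c at 0.05, Asns at 0.00 and Psat1 at -0.03.

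**Figure D2:**
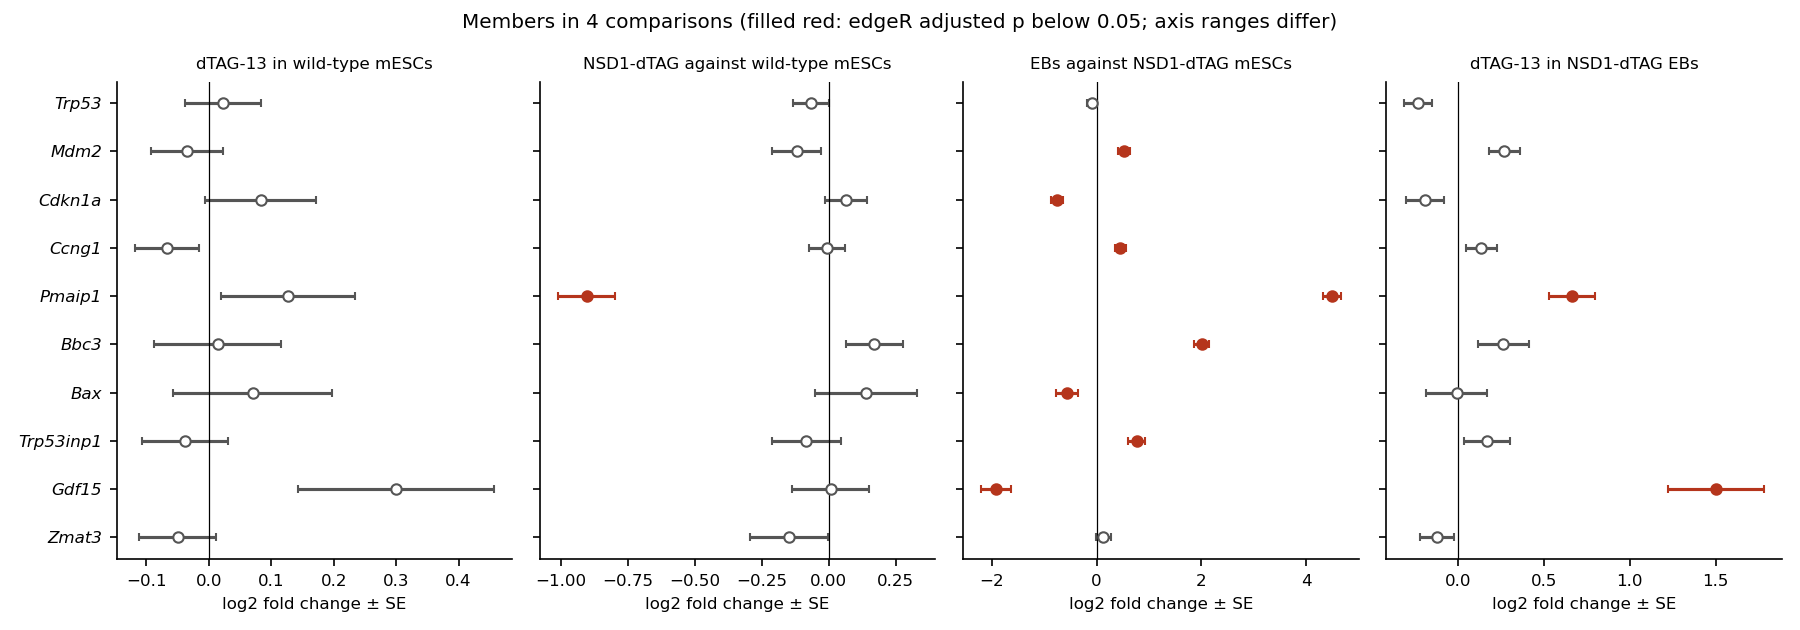
Log2 fold change ± SE (horizontal axes, ranges differ between panels) of the 10 genes in 4 comparisons of 3 against 3 libraries. Filled red points have an edgeR adjusted p below 0.05. No gene is filled in wild-type mESCs given dTAG-13, Pmaip1 alone in NSD1-dTAG against wild-type mESCs, 8 genes in EBs against mESCs, and Gdf15 and Pmaip1 in dTAG-13 EBs.

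The second comparison sets the knock-in line against wild-type mESCs, both nontreated. Pmaip1 was lower in NSD1-dTAG mESCs, at 2.88 ± 0.01 CPM against 5.62 ± 0.34 CPM (SD, n = 3), a log2 fold change of -0.90 (SE 0.11, edgeR adjusted p = 0.018), and lower in 3 of 3 libraries. It was the 1 gene of 10 called, where 1.86% of 13895 genes were called, 0.547% as higher and 1.32% as lower. The NSD1-dTAG libraries held 84, 80 and 71 Pmaip1 counts, too few for the SD of 0.01 CPM to measure precision. The other 9 genes had log2 fold changes from -0.15 for Zmat3 to 0.17 for Bbc3. Trp53 at -0.07 and Ccng1 at -0.01 did not overlap between groups in CPM yet were far from called, with adjusted p of 0.782 and 0.986 in edgeR, and 3 of the 10 genes against 23% of all genes were without overlap. Of the other p53 targets 0 of 36 were called, with a median of -0.04 against 0.01 over all genes, and the abundant Sesn2, Psrc1, Rps27l and Aen were at -0.11, -0.14, 0.14 and -0.02. No gene was called among 29 regulators, 6 cell cycle inhibitors, 13 DREAM genes and 7 ATF4 response genes. Rpl5 and Rpl11 were at 0.25 (SE 0.22) and 0.29 (SE 0.24) and were highest in NSD1-dTAG 1, Cdkn1b was at 0.05, Cdkn1c at -0.07, Top2a at -0.05, Ccna2 at 0.01, Asns at 0.04 and Psat1 at -0.25. Of 11 other BCL-2 family genes tested 1 was called: Bcl2l1, which encodes the survival protein Bcl-xL, was higher at 68.8 ± 1.27 CPM against 53.7 ± 1.07 CPM (log2 0.42, edgeR adjusted p = 0.0381). With the replicate number as a block 785 genes were called, and of the 10 p53 genes again Pmaip1 alone. The Pmaip1 call was lost without any 1 library other than NSD1-dTAG 1 (adjusted p 0.08 to 0.108, log2 fold change -0.95 to -0.87) and with scaling to the spike-in RNA (adjusted p = 0.378, log2 -1.03), which moved the median of all genes to -0.10. Without NSD1-dTAG 1 the number of genes called was 1248, and without any other 1 library 1 to 12.

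The third comparison asks how the p53 genes change over 6 days of EB differentiation in the tagged line, without degrader. Spike-in RNA made up 0.29% to 0.50% of counts in the 9 mESC libraries and was at 0 in the 6 EB libraries. The mESC and EB libraries thus also differ in spike-in handling, which cannot be told apart from differentiation. The BH3-only genes Pmaip1 and Bbc3 had the highest fold changes of the 10. Pmaip1 was 22.5-fold higher in EBs (log2 4.49, SE 0.17, edgeR adjusted p = 6.87e-07), at 71.7 ± 11.98 CPM against 2.88 ± 0.01 CPM, and Bbc3 was 4.01-fold higher (log2 2.00, SE 0.15, edgeR adjusted p = 1.06e-05), at 66.9 ± 9.04 CPM against 15.1 ± 1.24 CPM. Trp53inp1 rose by 0.76 on the log2 scale (SE 0.16, edgeR adjusted p = 0.00393), Mdm2 by 0.52 (SE 0.12, adjusted p = 0.00503) and Ccng1 by 0.45 (SE 0.10, adjusted p = 0.00435). Gdf15 was 3.78-fold lower (log2 -1.92, SE 0.28, edgeR adjusted p = 0.000514) and Cdkn1a 1.69-fold lower (log2 -0.75, SE 0.12, edgeR adjusted p = 0.000867).

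Trp53 itself was not called (log2 -0.08, SE 0.10, edgeR adjusted p = 0.481), nor was Zmat3 (log2 0.13, SE 0.15, adjusted p = 0.48). Bax was called as lower at the margin (log2 -0.56, SE 0.21, edgeR adjusted p = 0.0498) with overlapping groups. In all 5 of the 10 genes were called higher and 3 lower, where 33.1% of 15193 genes were called higher and 26.3% lower, 59.5% in all, so the count of called genes has a high background here. The groups did not overlap for 7 of the 10, against 66.3% of all genes. The median log2 fold change was 0.29 against 0.02 over all genes. Each of the 7 genes other than Bax kept its call in every alternative run, while the Bax call was lost without NSD1-dTAG 1 (log2 -0.34, adjusted p = 0.0912) and without nontreated EB 1 or 2 (log2 -0.48 each, adjusted p = 0.158 each). Without all libraries that stand apart Bax was called, at -0.50 (SE 0.05, edgeR adjusted p = 3.99e-05).

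Other p53 targets were called about as often as all genes over differentiation, 56.8% of 37 tested against 59.5%, with 43.2% higher and 13.5% lower against 33.1% and 26.3%. Of 18 other p53 targets in arrest and repair, 7 were higher and 0 lower. The 4 with the lowest adjusted p were the antiproliferative gene Btg2 at 79.1 ± 10.3 CPM against 15.7 ± 0.367 CPM (log2 2.18), the polo-like kinase Plk2 (log2 1.89), the excision nuclease Ercc5 (log2 1.14) and the bypass polymerase Polk (log2 0.95). Their median was 0.22. Of 19 tested targets in death and metabolism, 9 were higher and 5 lower, with a median of 0.27. Ddit4, an mTOR inhibitor induced by several stresses, was at 276 ± 35.6 CPM against 16.3 ± 0.685 CPM (log2 3.94), the peptide transporter Tap1 at 24.0 ± 3.08 CPM against 0.233 ± 0.0485 CPM (log2 6.51), the desmosome protein Perp rose by 4.25 and the ferrireductase Steap3 by 4.21. Metabolic enzymes were among those that fell: Tigar, a fructose bisphosphatase, by 1.36, the epoxide hydrolase Ephx1 by 2.02, the adenylate kinase Ak1 by 0.96 and the glutaminase Gls2 by 0.81, all on the log2 scale.

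Of 29 regulators and relatives of p53, 7 were higher (24.1%) and 10 lower (34.5%), 58.6% in all, which is near the share over all genes, and their median was -0.05. Setd7, a lysine methyltransferase with p53 among its substrates, was at 112 ± 3.00 CPM against 3.44 ± 0.928 CPM (log2 4.89), the methyltransferase Smyd2 was at 1.19, the kinase Hipk2 at 1.39 and the p53 relative Trp73 at 1.72 on the same scale. Cdkn2a, which encodes the Mdm2 inhibitor p19Arf and the kinase inhibitor p16Ink4a from shared exons, fell by 2.60, the deacetylase Sirt1 by 1.07, the histone chaperone Daxx by 0.72 and the checkpoint kinase Chek2 by 0.72. Among 12 other BCL-2 family genes 7 were higher (58.3%) and 2 lower (16.7%), with a median of 0.74. The BH3-only genes Bcl2l11 (log2 3.52), Bmf (log2 2.28) and Bik (log2 3.82) rose together with the survival gene Bcl2 (log2 4.32), while Bid and Bad fell by 1.43 and 1.16. Bid shares 628 exon bases with Bcl2l13 and Bad 524 with Gpr137 on the opposite strand, and the counted strand is not given in the sources used here, so both values are uncertain.

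Of 6 other cell cycle inhibitors and relatives 3 were higher (50% against 33.1% of all genes), 1 was lower like Cdkn1a and 2 were not called. The higher ones were Cdkn1c (p57) at 56.8 ± 0.830 CPM against 7.49 ± 0.743 CPM (log2 2.77), Ccng2 (log2 1.27) and Cdkn1b (p27, log2 0.55), and Cdkn2c fell by 1.94 on the log2 scale. Of 13 cell cycle genes that the DREAM complex represses when p53 is active, 1 was higher, Bub1 (log2 0.63), and 2 lower, Birc5 (log2 -0.93) and Ccnb1 (log2 -0.39). That is 23.1% called, against 59.5% of all genes. Of 7 genes of the ATF4 stress response, another known input to Gdf15, 1 was higher, Atf3 (log2 4.28), and 4 were lower. The lower ones were the asparagine synthetase Asns at -1.503, Trib3 at -1.15, Psat1 at -0.79 and Atf4 at -0.59. The median of the 7 was -0.59, and 71.4% of them were called against 59.5% of all genes. All calls are edgeR's at an adjusted p below 0.05. Markers of cell state moved with these groups: 7 of 8 naive markers were lower in EBs, and 4 of 4 formative, 4 of 4 primitive streak and 7 of 7 visceral endoderm markers were higher. The visceral endoderm markers summed to 286 to 314 CPM in nontreated EBs against at most 0.755 CPM in NSD1-dTAG mESCs, where Ttr was at 0. Of 4 neural markers Pax6 was higher and Tubb3 lower, and of 4 of blood and endothelium Kdr was higher and Pecam1 lower. Neurog2, a neural marker, and Hbb-bh1, a blood marker, were at 0 in both groups, and the part of cell makeup in the p53 results was not tested.

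**Figure D3:**
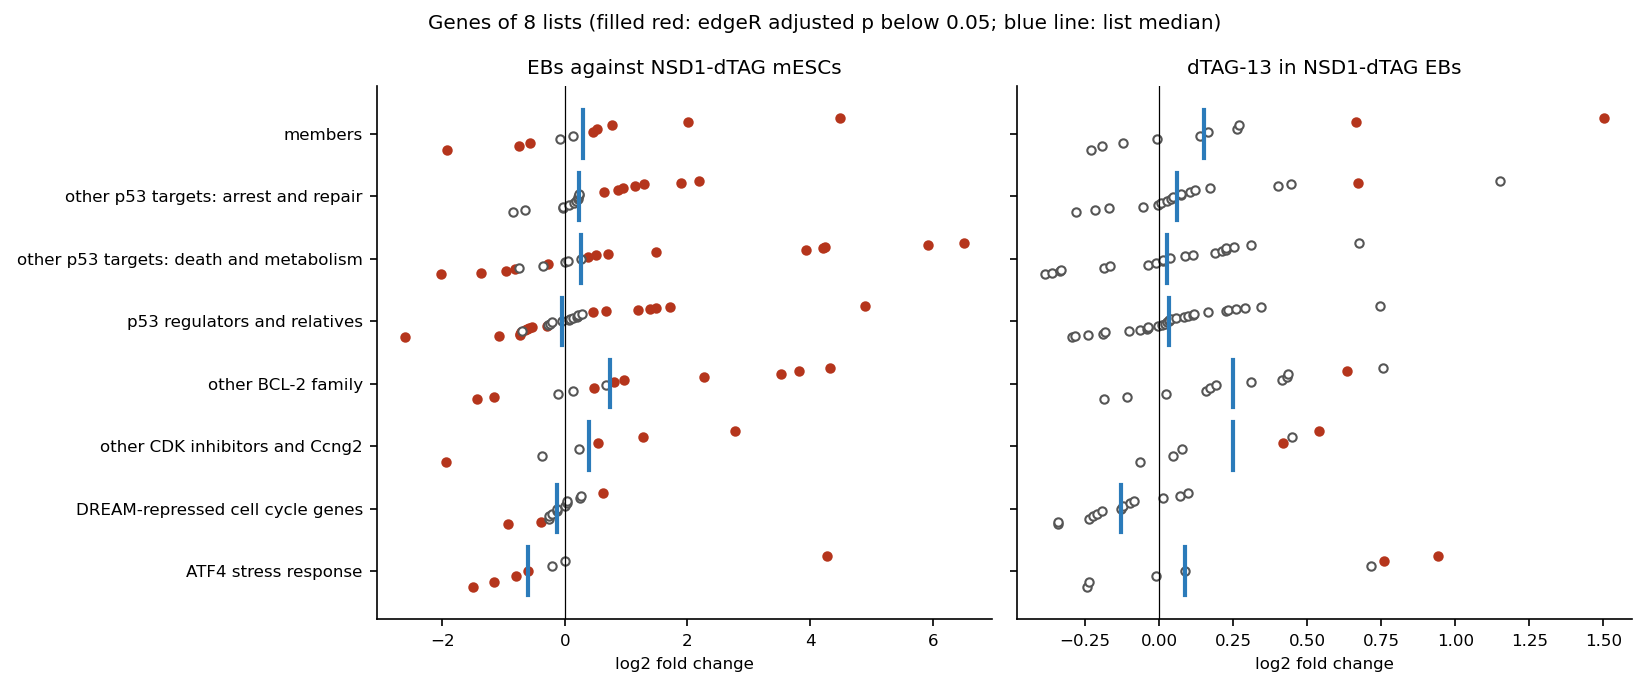
Log2 fold change (horizontal axes, ranges differ) of every tested gene of 8 lists, with the 10 p53 genes in the top row, for EBs against NSD1-dTAG mESCs (left) and dTAG-13 EBs against nontreated EBs (right). Filled red points have an edgeR adjusted p below 0.05 and blue lines are list medians. On the left the 10 genes spread from -1.92 to 4.49. On the right filled points are few and all lie above 0.

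The last pair asks what the degrader does during EB differentiation of the tagged line. Gdf15 was 2.83-fold higher in dTAG-13 EBs, at 2.76 ± 0.12 CPM against 0.96 ± 0.32 CPM (log2 1.502, SE 0.28, edgeR adjusted p = 0.0214), and Pmaip1 1.58-fold higher, at 115 ± 12.4 CPM against 71.7 ± 11.98 CPM (log2 0.66, SE 0.14, edgeR adjusted p = 0.0278). Each was higher in 3 of 3 libraries. Of the 10 genes 2 were thus called higher and 0 lower, where 6.76% of 15236 genes were called, 3.98% as higher and 2.78% as lower. Groups did not overlap for 5 of the 10, against 27.4% of all genes, and the median log2 fold change was 0.15 against -0.01.

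The remaining p53 genes gave values on both sides of 0 that did not pass the test. Mdm2 was at 186 ± 4.57 CPM against 152 ± 12.8 CPM (log2 0.27, SE 0.09, edgeR adjusted p = 0.132) and Trp53 at 269 ± 9.63 CPM against 312 ± 11.4 CPM (log2 -0.23, SE 0.08, adjusted p = 0.133). Both pairs of groups were without overlap, as was Ccng1 (log2 0.14, SE 0.09, edgeR adjusted p = 0.444). Cdkn1a was at -0.19 (SE 0.11, adjusted p = 0.368), Bbc3 at 0.26 (SE 0.15, adjusted p = 0.367), Trp53inp1 at 0.17 (SE 0.13), Zmat3 at -0.12 (SE 0.10) and Bax at -0.01 (SE 0.18), all on the log2 scale in edgeR. Trp53, Cdkn1a and Zmat3 lay below 0 in every alternative, and Mdm2, Ccng1, Gdf15, Pmaip1, Bbc3 and Trp53inp1 above 0. Mdm2 was called in 0 of 13 alternatives. The alternatives refit the same libraries, so a kept sign is not separate evidence.

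Same-numbered libraries of the EB groups deviated together, and each library matched its own number best. Replicate 3 stands apart in both groups, so whether numbers pair libraries is not settled here. With the replicate number as a block Bbc3 was also called (log2 0.26, SE 0.06, edgeR adjusted p = 0.0493). Mdm2 was then at an adjusted p of 0.0507 and Trp53 at 0.0554, with 1834 genes called in all. The Gdf15 and Pmaip1 calls depend on single libraries. Both were lost without nontreated EB 2 and without dTAG-13 EB 1 or 2, the Gdf15 call was lost without nontreated EB 1, and the Pmaip1 call without nontreated EB 3, with log2 fold changes of 1.24 to 1.57 and 0.59 to 0.67 and edgeR adjusted p of 0.0637 to 0.0752 and 0.0555 to 0.128. Without both libraries that stand apart 4 of the 10 genes were called: Gdf15 (log2 1.69) and Pmaip1 (log2 0.67) as higher, and Cdkn1a (log2 -0.34, adjusted p = 0.0172) and Trp53 (log2 -0.20, adjusted p = 0.041) as lower, among 3233 genes.

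**Figure D4:**
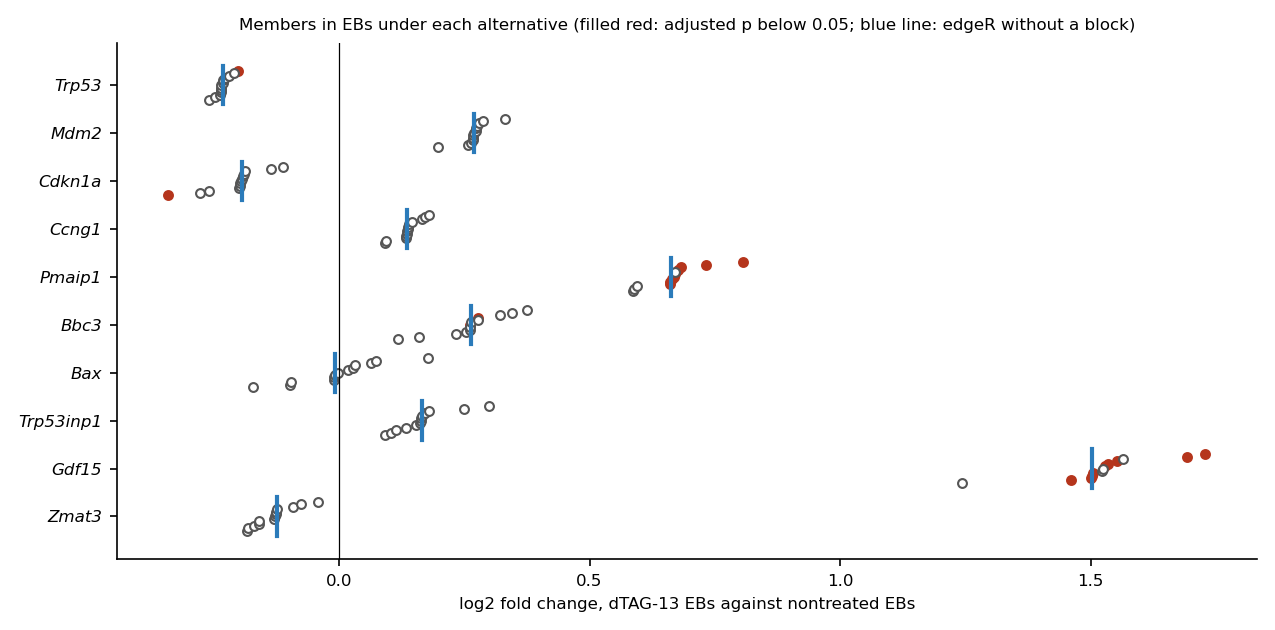
Log2 fold change of the 10 genes in dTAG-13 EBs against nontreated EBs (horizontal axis) under each of 13 alternatives, including leaving out each library. Filled red points have an adjusted p below 0.05 and blue lines mark edgeR's values without a block. Gdf15 stays above 1.2 and Pmaip1 above 0.5 throughout, and the Bax points lie on both sides of 0.

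Of 38 other p53 targets 1 was called in dTAG-13 EBs, 2.63% against 6.76% of all genes, with 4 called under the replicate block and 10 without the libraries that stand apart. The kinase Plk3 was at 24.5, 21.5 and 24.8 CPM against 17.3, 13.7 and 12.9 CPM (log2 0.67, edgeR adjusted p = 0.0293). Their median was 0.04. The death and metabolism targets of highest mean CPM over the 15 libraries, Rps27l and Aen, were at -0.01 and 0.01. Ddit4, more abundant in EBs, was at 325 ± 3.21 CPM against 276 ± 35.6 CPM without overlap and was not called. In that list 12 of 20 genes lay above 0 and 8 below. None of 29 regulators and relatives was called in edgeR, though 5 had an unadjusted p below 0.05, and Rpl5 and Rpl11 were both at -0.04. DREAM genes had 0 of 13 called and 5 such p-values, with a median of -0.13, Top2a at -0.12 and Ccna2 at -0.21. Of all 15236 genes tested, 3313 had an unadjusted p below 0.05. In the BCL-2 family 1 of 12 was called, the BH3-only gene Bmf at 32.4, 30.9 and 33.2 CPM against 22.7, 18.02 and 20.6 CPM (log2 0.63, adjusted p = 0.0208), and the list median was 0.25. The kinase inhibitor Cdkn1b was at 92.8, 94.2 and 103 CPM against 61.5, 62.2 and 72.5 CPM (log2 0.54, edgeR adjusted p = 0.0234), and Cdkn1c at 76.9 ± 8.58 CPM against 56.8 ± 0.830 CPM (log2 0.42, adjusted p = 0.05 as rounded). Both were thus called higher, 2 of 6 in their list.

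Of the 7 ATF4 response genes 2 were called: Trib3, a pseudokinase that ATF4 and CHOP activate, at 34.7, 34.0 and 50.9 CPM against 21.5, 16.8 and 23.1 CPM (log2 0.94, edgeR adjusted p = 0.03), and Atf5 at 67.2 ± 7.10 CPM against 39.1 ± 4.43 CPM (log2 0.76, adjusted p = 0.0154). Atf4 itself was not called (log2 0.09, edgeR adjusted p = 0.738). Called genes made up 28.6% of the 7, against 6.76% of all genes. Atf5 shares 82 exon bases with Nup62 on the opposite strand, so its value is uncertain to that extent. TGATGNAA, a core motif of ATF4 sites searched on both strands, occurred in 0 of the 11 promoter windows of the p53 genes, against 3.97% of the 32851 windows. The Gdf15 windows were among the 11. With so few windows and so low a share, 0 matches is the usual outcome, and ATF4 input was not tested. The motif was also absent from the Atf5 windows and present in that of Trib3. Cell state markers differed here too. Primitive streak markers summed to 28.5 to 119 CPM in dTAG-13 EBs against 294 to 757 CPM in nontreated EBs, with 3 of 4 called lower, and 4 of 8 naive markers were called lower. Visceral endoderm markers summed to 107 to 325 CPM against 286 to 314 CPM, with 1 of 7 called lower, and Nanog and the neural marker Pax6 were lower too. Of all these markers Hbb-bh1 was at 0 in both EB groups and Neurog2 in the nontreated one, and the part of cell makeup in the changes of Gdf15, Pmaip1, Bmf and Cdkn1b was not tested.

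The effect of dTAG-13 in NSD1-dTAG EBs was then set against its effect in wild-type mESCs, as an interaction over 12 libraries. None of the 10 genes was called, where 2.88% of 15855 genes were. Gdf15 had the largest difference of the 10 at 1.19 on the log2 scale (SE 0.32, edgeR adjusted p = 0.0714). Pmaip1 followed at 0.53 (SE 0.18, adjusted p = 0.166). Of the 10 genes 4 had an unadjusted p below 0.05, as had 2363 of all 15855 genes. DESeq2 called Gdf15 (log2 1.19, adjusted p = 0.0184). Without the libraries that stand apart Gdf15 was called higher (log2 1.48, edgeR adjusted p = 0.0141) and Cdkn1a lower (log2 -0.34, adjusted p = 0.0393). Outside the 10, Bmf at 0.77 (edgeR adjusted p = 0.0151) and Cdkn1b at 0.55 (adjusted p = 0.0305) passed the test of the difference, while 0 of 38 other p53 targets did in edgeR, with 11 at an unadjusted p below 0.05. Cell state, genotype, length of treatment and spike-in handling differ together between these pairs of groups and cannot be told apart.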

How the data were processed

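Raw gene-level read counts were deposited by the authors for 15 mouse poly(A) RNA-seq libraries, 5 groups of 3, made with a strand-specific kit per the labels' protocols. DESeq2 1.30.0, STAR, bcl2fastq 2.20.0.422 and the builds GRCm38.p6 and mm10 are listed in the submitters' processing notes. How reads were counted, on which strand and with which annotation is not given in the sources used here. Of 55471 gene IDs, 55230 matched GENCODE M21 (GRCm38) without version numbers, and 92 ERCC spike-in rows stayed out of totals and tests. They were 0 in the 6 EB libraries, so spike-in scaling was tried in mESCs only.

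Counts were tested in R 4.3.3 with the quasi-likelihood F test of edgeR 4.0.16, using TMM factors, filterByExpr and Benjamini-Hochberg adjustment over all genes tested, each comparison on its own groups. CPM divides by gene counts without TMM, and fold changes use TMM. Scripts were tested on simulated data. Of simulated 1.5-fold changes, the main fit recovered 87.9% in wild-type mESCs given dTAG-13 and 31.2% in NSD1-dTAG mESCs. It recovered 17.9% in EBs against mESCs, 43.3% in dTAG-13 EBs and 26.5% in the interaction, and 100% of 4-fold changes throughout. A gene that was not called may thus still have changed by 1.5-fold. Alternatives were DESeq2 1.42.0, its size factors, no filter, a replicate block, a gene-length offset, ERCC scaling, each library left out, and the 5 libraries that stand apart left out. Tables and plots were made with matplotlib 3.10.9, numpy 2.4.6 and pandas 2.3.3 in Python 3.11.15.

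The 10 genes and all other lists were chosen with earlier results of these data known. All 10 genes are named, and from each other list that is not of markers up to 4 called genes per direction by adjusted p, or, with 0 called, the 2 of highest mean CPM (for the interaction only called genes are named). Genes most like Trp53 and Cdkn1a are the 3 of highest r each. Atf4, and Ddit4 in dTAG-13 EBs, were named after their values were seen. One listed gene, Ddit3, was not used because its symbol is shared between IDs. Deviations of same-numbered libraries from their group means correlated at 0.36, 0.15 and 0.13 between NSD1-dTAG and wild-type mESCs. Between the EB groups they correlated at 0.20, 0.22 and 0.36, so each value was above 0.1. In both of these comparisons the libraries that stand apart share a number, and in the others they do not. In both, each library also correlated best with the library of its own number. A shared position can by itself give correlations above 0.1, so their size does not settle whether numbers pair libraries. The replicate block is given as an alternative only. Labels give the numbers without a shared batch or day.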

Additional observations from a re-analysis of the deposited data

How the results depend on the processing

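Of 730 refits of the 10 genes' log2 fold changes, 655 kept direction and side of the threshold, 18 lost a call, 12 gained one and 45 changed sign, 0 of them where the gene was called. The cause of these changes was not tested. In each comparison the libraries set apart are those that stood apart in ribosomal share and exon length. Genes called in NSD1-dTAG against wild-type mESCs numbered 259 in edgeR, 528 in DESeq2, 785 with a replicate block, 640 with a gene-length offset, 1397 with both, 1 with ERCC scaling, 3123 without the libraries set apart and 1 to 1248 with a library left out. For dTAG-13 EBs the number was 1030, then 1626 in DESeq2, 1834 with the block, 1845 with block and length offset, 3233 without the libraries set apart and 182 to 1293 with a library left out. For the interaction it was 456, then 781 in DESeq2, 915 without a filter, 722 with block and length offset, 1897 without the libraries set apart and 202 to 763 with a library left out. For dTAG-13 in wild-type mESCs it was 0, and 16 without the libraries set apart.

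Of the 10 p53 genes, ERCC scaling and leaving out single libraries called 0 and 0 to 1 in NSD1-dTAG mESCs. Leaving out single libraries called 0 to 2 in dTAG-13 EBs, and 4 were called there without the libraries set apart. In the interaction 1 was called in DESeq2, without a filter, with the length offset and with it and the block, 0 to 1 with a library left out, and 2 without the libraries set apart. Other p53 targets called in NSD1-dTAG mESCs were 1 with block and length offset and 3 without the libraries set apart. In dTAG-13 EBs they were 2 in DESeq2, 4 with the block, alone or with the offset, 0 to 3 with a library left out and 10 without the libraries set apart. In the interaction they were 3 in DESeq2, 1 without a filter, 1 with the block, 1 with the length offset, 2 with both, 0 to 2 with a library left out and 8 without the libraries set apart.

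Sign changes were among small values. In NSD1-dTAG mESCs Bax was at -0.018 without the libraries set apart, -0.034 with ERCC scaling and -0.106 to 0.257 with a library left out. Ccng1 was at 0.002 with DESeq2 size factors, 0.006 in DESeq2 and -0.027 to 0.035. Cdkn1a was at -0.044 with ERCC scaling. Gdf15 was at -0.076 with the length offset, -0.092 with it and the block, -0.098 with ERCC scaling and -0.066 to 0.107. Trp53inp1 was at 0.015 without the libraries set apart and -0.186 to 0.036, and Zmat3 at -0.255 to 0.002. In EBs against mESCs Zmat3 was at -0.048 with the length offset, also with the block, and -0.047 to 0.205. In dTAG-13 EBs Bax was at 0.028 with the length offset, 0.032 with it and the block, 0.018 without the libraries set apart and -0.171 to 0.178, and in the interaction at -0.253 to 0.109.

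In wild-type mESCs given dTAG-13, Bax was at -0.074 to 0.174 with a library left out. Bbc3 was at -0.007 with the length offset, -0.011 with it and the block, -0.044 without the libraries set apart and -0.089 to 0.073. Cdkn1a was at -0.003 and Trp53 at -0.035 without the libraries set apart, and at -0.014 to 0.166 and -0.023 to 0.056. Mdm2 was at 0.026 with ERCC scaling, and Trp53inp1 at 0.02 and -0.069 to 0.021. Zmat3 was at 0.009 with the length offset, 0.006 with it and the block and 0.011 with ERCC scaling. ERCC scaling moved the median of all genes by over 0.1 only in NSD1-dTAG mESCs, from 0.01 to -0.10.

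The block ended 1 call in the comparisons whose same-numbered libraries did not all correlate above 0.1. It was Bax in EBs against mESCs (log2 -0.55, edgeR adjusted p = 0.0784), with 7999 genes called against 9037. Same-numbered libraries correlated there at -0.15, 0.09 and -0.21, and in wild-type mESCs at -0.11, 0.11 and -0.10. TMM factors over the 15 libraries moved 12 of 50 group levels in CPM by more than 1 SD. Depth limits Gdf15 most, at 17 to 33 counts in nontreated EBs.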
